A study of Homo sapiens with 19 samples.

Results

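The 37 protein-coding genes that encode human aminoacyl-tRNA synthetases were followed through 19 RNA libraries from 3 cell lines, measured by reads spliced across their annotated introns. They were found by name among 19936 protein-coding genes of GENCODE 29, as an amino acid letter followed by ARS or ARS2, with EPRS, FARSA and FARSB added. PARS2 was kept as well, although the list of letters did not hold its P. By their known sites of action 18 encode cytosolic enzymes, 17 mitochondrial enzymes (the names ending in 2) and 2, GARS and KARS, serve both compartments from a single gene. The annotation uses older names, so AARS is the gene now called AARS1, and likewise for the other cytosolic and dual genes apart from FARSA and FARSB.

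An aminoacyl-tRNA synthetase joins an amino acid to the tRNAs that carry its anticodons, which supplies the ribosome with charged tRNA. Cytosolic enzymes serve the translation of nuclear genes, and some of them are bound together in a multi-synthetase complex on the scaffold proteins AIMP1, AIMP2 and EEF1E1. The mitochondrial enzymes are also encoded in the nucleus and are imported to charge the tRNAs of the mitochondrial genome. ATF4, a transcription factor induced when amino acids are short or when eIF2 is phosphorylated, is known to bind C/EBP-ATF response elements near genes of amino acid transport, amino acid synthesis and several cytosolic synthetases.

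The libraries were depleted of ribosomal RNA. HUES66 is a human embryonic stem cell line, A375 a melanoma line and HEK293 an embryonic kidney line. A375 gave 1 library each of total, nuclear and cytoplasmic RNA, and HEK293 and wild-type HUES66 gave 1 library of total RNA each. The other 14 libraries came from HUES66 cells that all received 1 µg/ml doxycycline, for 24, 48 or 96 hr, controls included. The description of the wild-type HUES66 library carries the name used for the controls, with a library series shared by the first 24 hr replicate, so its status is uncertain and it entered no knockdown comparison except as an alternative. The treated libraries comprised 3 controls (24 hr replicate 2, 48 hr, 96 hr), 3 libraries of total RBFOX2 knockdown (24 hr replicate 1, 48 hr, 96 hr), and 4 each of N-short and N-long knockdown (both 24 hr replicates, 48 hr, 96 hr). The titles name the controls only as such, and the authors' deposited splicing comparisons call the comparator empty. The N-short and N-long knockdowns are labelled as isoform knockdowns. RBFOX2 encodes a splicing regulator that binds RNA, and Cas13d, the RNA-guided RNase that the title of the series gives, cleaves RNA. Each knockdown carries a single code in its library names, so the loss of RBFOX2 and any other action of that knockdown reagent cannot be told apart. Nothing in the labels says that the libraries came from separate cultures, so the p-values measure the spread between these libraries. In bulk RNA, fewer cells that express a gene and less RNA per cell cannot be told apart.

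Each library held 6499183 to 27937149 junction reads (9622841 to 14625040 in the treated libraries), of which 93.4% to 94.8% lay on annotated introns of 1 gene and were used. Values by library are given as CPM, read counts scaled to library size, here after TMM normalisation. RBFOX2, the targeted gene, had 126 to 134 CPM in the controls, 50.7 to 81.8 in the total knockdown, 114 to 124 in the N-short knockdown and 77.9 to 90.7 in the N-long knockdown. RBFOX2 reads therefore fell in the total knockdown (log2 fold change -0.82, adjusted p = 1.12e-08) and the N-long knockdown (-0.57, adjusted p = 3.43e-05) and did not pass the test in the N-short knockdown (-0.06, adjusted p = 0.998, edgeR's quasi-likelihood test with Benjamini-Hochberg adjustment). Of 6 stem cell markers all had reads in every group, and their summed level, as CPM without TMM scaling, was 3831 to 5031 in the total knockdown and 3224 to 4514 in the other treated libraries. Markers of differentiated cells summed to at most 0.64 on that unscaled CPM in each treated library, with CDX2 at 0.

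The mitochondrial genes MARS2 and PARS2 could not be followed. MARS2 has 0 annotated introns, and PARS2, with 1 intron, had at most 0.2145 CPM in the treated libraries and fell under the filter on low counts, which left 35 genes in every test. SARS2 could use 10 of its 24 annotated introns and VARS2 35 of 47, since the others are shared with overlapping genes. Of the SARS2 introns only 1 had enough reads to be tested alone. In total knockdown against control its log2 fold change (-0.0269) nearly equalled that of the gene (-0.0271), so the SARS2 value rests mainly on that intron. SARS2 had 3.35 to 5.83 CPM in the treated libraries. Reads on introns absent from this annotation were counted beside those on introns of 1 gene. The absent ones held 12.5% in SARS2, 6.01% in FARS2, 4.53% in WARS2 and 4.49% in RARS2. Reads on shared introns do not enter this share, so for SARS2 it overstates the share among all its reads.

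In the total RBFOX2 knockdown 9 of the 20 cytosolic and dual synthetase genes were higher than in the controls, and none of the 15 mitochondrial ones was called. WARS rose most, by 1.37-fold, followed by AARS (1.33-fold), CARS (1.32-fold), MARS (1.28-fold), SARS and GARS (1.24-fold each), NARS (1.22-fold), YARS (1.19-fold) and EPRS (1.15-fold). No synthetase fell. Each comparison was tested by edgeR's quasi-likelihood F-test over 13628 genes, with terms for knockdown and for library set (each time point, with the 24 hr replicates kept apart), and genes with a Benjamini-Hochberg adjusted p under 0.05 were called. In all, 2.20% of genes tested were called in this comparison and 1.01% were higher, against 9 of 35 synthetases. The class medians of the log2 fold change were 0.09 in the 18 cytosolic genes, 0.18 in the 2 dual genes and -0.01 in the 15 mitochondrial genes, beside -1.93e-04 over all genes.

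**Figure D1:**
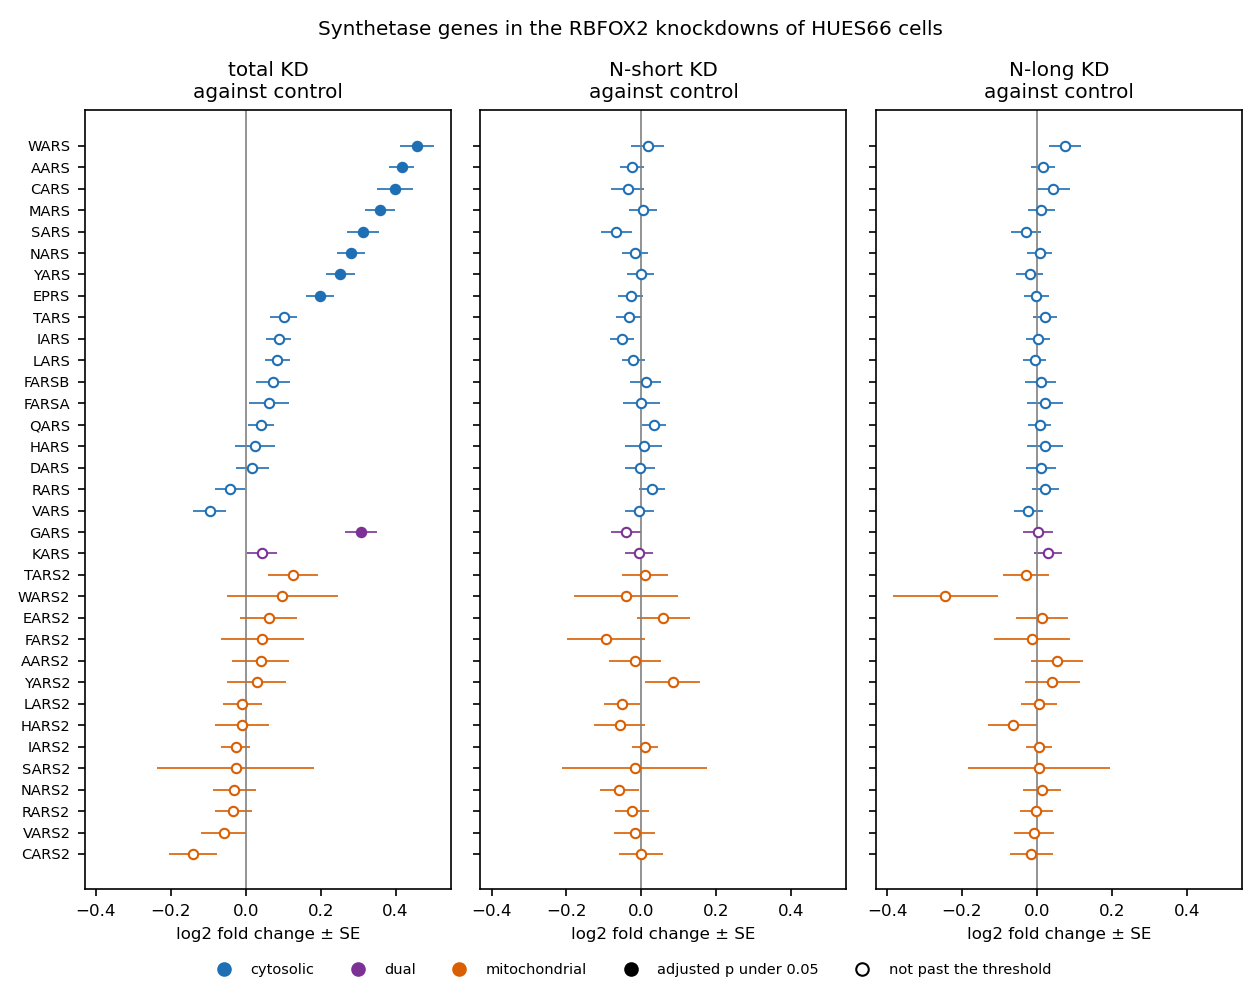
Log2 fold change with its standard error (horizontal axis) of 34 synthetase genes tested (vertical axis) in each knockdown against control, coloured by class, with filled points for an adjusted p under 0.05. The 9 filled points all lie in the total knockdown and belong to cytosolic or dual genes, while the mitochondrial genes drawn lie between -0.14 and 0.13 there.

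Among the enzymes that act outside the multi-synthetase complex, WARS, the tryptophanyl-tRNA synthetase (chr14:100333788-100376805, minus strand, GRCh38), had 162, 181 and 163 CPM in the total knockdown at 24, 48 and 96 hr and 124, 121 and 123 CPM in the controls at 24, 48 and 96 hr. All 3 total knockdown libraries lay above all 11 other treated libraries, which ranged from 119.8 to 134 CPM with a median of 126. The log2 fold change was 0.46 (SE 0.0459, adjusted p = 2.16e-08, edgeR's quasi-likelihood test with Benjamini-Hochberg adjustment, as for every adjusted p here). AARS, the alanyl-tRNA synthetase (chr16:70252295-70289543, minus strand), had 531, 646 and 487 CPM in the total knockdown against 429, 469 and 366 CPM in the controls. Its total knockdown libraries did not overlap the other 11 (366 to 473 CPM, median 415), and its log2 fold change was 0.42 (SE 0.0346, adjusted p = 3.41e-10). Within a set, AARS was 1.38 times the control at 48 hr and 1.33 times at 96 hr.

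CARS, the cysteinyl-tRNA synthetase (chr11:3000922-3057613, minus strand), had 194, 189.6 and 151 CPM in the total knockdown and 148, 143 and 121 CPM in the controls. The 96 hr total knockdown library lay inside the range of the other 11 libraries (121 to 157 CPM, median 137), but above the other 3 of its own set. The log2 fold change of CARS was 0.40 (SE 0.0478, adjusted p = 7.74e-07). SARS, the seryl-tRNA synthetase (chr1:109213918-109238169, plus strand), had 183, 200.5 and 159 CPM in the total knockdown and 148, 154 and 137 CPM in the controls, and its total knockdown libraries lay above the other 11 (128 to 154 CPM, median 144). Its log2 fold change was 0.31 (SE 0.044, adjusted p = 1.38e-05).

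NARS, the asparaginyl-tRNA synthetase (chr18:57600656-57622213, minus strand), had 478, 436 and 472 CPM in the total knockdown and 416, 327 and 412 CPM in the controls. The total knockdown libraries were above the other 11 (327 to 416 CPM, median 403), and the log2 fold change was 0.28 (SE 0.0376, adjusted p = 6.07e-06). YARS, the tyrosyl-tRNA synthetase (chr1:32775237-32818153, minus strand), had 329, 357 and 322 CPM in the total knockdown and 301, 299 and 269 CPM in the controls, again without overlap with the other 11 libraries (264 to 309.6 CPM, median 286). Its log2 fold change was 0.25 (SE 0.0384, adjusted p = 5.18e-05). GARS, the glycyl-tRNA synthetase of both compartments (chr7:30594681-30634033, plus strand), had 573, 519 and 529.6 CPM in the total knockdown, 468, 385 and 472 CPM in the controls, and 353 to 476 CPM (median 464) in the other 11 libraries together. These groups did not overlap, and the log2 fold change was 0.31 (SE 0.0439, adjusted p = 1.69e-05).

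Of the 8 members of the multi-synthetase complex (EPRS, IARS, LARS, MARS, QARS, RARS, KARS and DARS), 2 rose. MARS, the methionyl-tRNA synthetase (chr12:57475445-57517569, plus strand), had 595, 558 and 485 CPM in the total knockdown and 464, 402 and 409 CPM in the controls. All 3 lay above the other 11 libraries (392 to 475 CPM, median 421), and its log2 fold change was 0.36 (SE 0.0404, adjusted p = 2.2e-07). EPRS, which joins glutamyl- and prolyl-tRNA synthetase in a single protein (chr1:219968601-220046658, minus strand), had 612, 667 and 610 CPM in the total knockdown and 610.5, 531 and 560 CPM in the controls. These groups overlapped, the 24 hr replicate 2 control reaching the level of the 96 hr total knockdown, and the log2 fold change was 0.20 (SE 0.0373, adjusted p = 0.00118). The EPRS call rested on the 48 hr set: its adjusted p was 0.0542 with the control of that set left out and 0.0863 with its total knockdown left out.

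The median log2 fold change was 0.06 in the 8 complex members and 0.27 in the 12 other cytosolic and dual genes, of which 7 rose. This grouping was chosen after the values were seen, and the difference between the groups was not tested. The other cytosolic and dual genes did not pass the test. TARS (threonyl) had a log2 fold change of 0.10 (adjusted p = 0.155), IARS (isoleucyl) 0.09 (adjusted p = 0.222) and LARS (leucyl) 0.08 (adjusted p = 0.231), while FARSA and FARSB, the subunits of the cytosolic phenylalanyl enzyme, had 0.06 and 0.07. QARS (glutaminyl), KARS (lysyl), HARS (histidyl), DARS (aspartyl) and RARS (arginyl) lay between -0.04 and 0.04. VARS (valyl) had the lowest value of the cytosolic genes, -0.10 (SE 0.0438, adjusted p = 0.33).

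None of the 15 mitochondrial genes tested passed in the same comparison, and CARS2 had the lowest value, -0.14 (SE 0.0641, adjusted p = 0.336). CARS2, the mitochondrial cysteinyl enzyme, had 61.9, 53.2 and 57.5 CPM in the total knockdown and 58.6, 62.7 and 61.4 CPM in the controls, with overlap. TARS2 was the mitochondrial gene whose total knockdown libraries (52.22 to 60.1 CPM) did not overlap the other 11 (44.6 to 52.18 CPM), by a narrow margin, and its log2 fold change of 0.13 did not pass the test (SE 0.0664, adjusted p = 0.435). VARS2 had the second lowest mitochondrial value, -0.06 (SE 0.0597, adjusted p = 0.751).

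By edgeR's quasi-likelihood test, 1 of the 15 mitochondrial genes, CARS2, had an unadjusted p under 0.05, against 13 of the 20 cytosolic and dual genes and 1767 of all genes, and DESeq2 also called 0 mitochondrial genes. Without the 24 hr total knockdown library 1 mitochondrial gene was called, as were IARS, LARS and TARS. The mitochondrial genes carry fewer reads, and their standard errors had a median of 0.0728 against 0.0398 in the cytosolic genes. A change of the size seen in EPRS or YARS would therefore be harder to call in most mitochondrial genes, whereas IARS2 (SE 0.0387, log2 fold change -0.03) was measured as closely as the cytosolic genes.

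**Figure D2:**
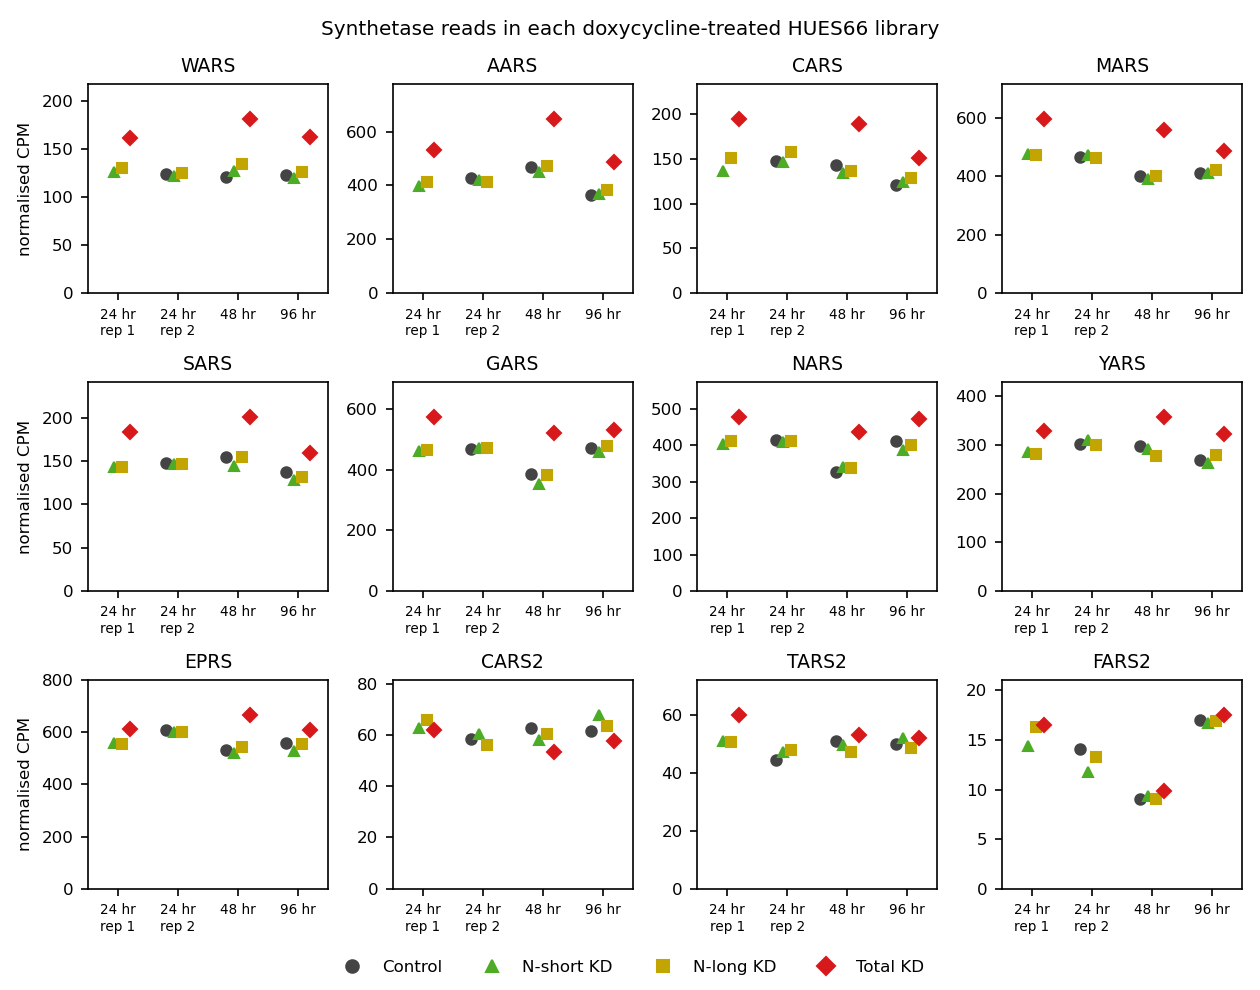
Normalised CPM (vertical axes, from 0) of the 9 genes called higher in the total knockdown and of CARS2, TARS2 and FARS2 in each treated library, by library set (horizontal axis) and group. The total knockdown is the highest library of every set it is part of for the 9 called genes, whereas FARS2 varies mainly between sets.

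Mitochondrial genes took 10.2% to 11.1% of all synthetase reads in the 3 total knockdown libraries (median 10.3%) and 11.1% to 11.9% in the other 11 treated libraries (median 11.6%). The highest total knockdown value, 11.07%, and the lowest other value, 11.09%, all but met. The mitochondrial reads themselves were not lower: as CPM without TMM scaling they summed to 1016 to 1047 in the total knockdown and 999 to 1045 in the other 11. Cytosolic reads summed to 7504 to 8118 and 6734 to 7276 CPM. Within sets, the median ratio of total knockdown to control over the 18 cytosolic genes was 1.15 at 48 hr and 1.04 at 96 hr, and over the 15 mitochondrial genes 1.01 at both times. The first 24 hr replicate has no titled control, and there the ratios of total to N-short knockdown had a median of 1.07 for cytosolic and 0.984 for mitochondrial genes. Ratios at 48 hr exceeded those at 96 hr for 8 of the 9 called genes, YARS being the exception (1.196 at 48 hr and 1.197 at 96 hr). A difference between the times was not tested, since each set has 1 library per group.

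The promoters of the 9 genes were searched for TGATGNAA, the core of the C/EBP-ATF response element, on both strands of the RefSeq windows (GRCh38.p14, from 250 bases before to 50 after each annotated start site). Windows were at hand for 30 of the 37 genes, and among the 9 not for YARS. Of the 8 genes called higher in the total knockdown that had a window, 5 held the motif (62.5%), against 2 of 8 other cytosolic and dual genes (25%), 1 of 14 mitochondrial genes (7.14%) and 1217 of 27305 genes in the whole table (4.46%). Of single windows, 1270 of 35116 held it (3.62%). The windows of 4 of these 5 are printed because they belong to genes that rose, 5′ to 3′ on the gene's strand and cut at 30 bases after the start site (280 bases each), with the match in capitals. They are CARS (chr11:3057394-3057673, minus strand), MARS (chr12:57487818-57488097, plus strand), NARS (chr18:57621807-57622086, minus strand) and GARS (chr7:30594628-30594907, plus strand).
CARS: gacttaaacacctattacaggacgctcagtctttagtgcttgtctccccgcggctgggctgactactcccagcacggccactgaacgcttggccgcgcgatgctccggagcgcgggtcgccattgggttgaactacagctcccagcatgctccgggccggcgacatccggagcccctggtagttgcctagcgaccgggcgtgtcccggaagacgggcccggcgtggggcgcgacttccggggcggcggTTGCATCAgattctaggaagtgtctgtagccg
MARS: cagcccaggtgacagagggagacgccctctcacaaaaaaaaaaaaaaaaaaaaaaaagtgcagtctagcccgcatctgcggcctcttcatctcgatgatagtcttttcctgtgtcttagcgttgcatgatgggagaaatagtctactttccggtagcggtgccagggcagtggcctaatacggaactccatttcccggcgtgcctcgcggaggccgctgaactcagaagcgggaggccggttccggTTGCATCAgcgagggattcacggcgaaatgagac
NARS: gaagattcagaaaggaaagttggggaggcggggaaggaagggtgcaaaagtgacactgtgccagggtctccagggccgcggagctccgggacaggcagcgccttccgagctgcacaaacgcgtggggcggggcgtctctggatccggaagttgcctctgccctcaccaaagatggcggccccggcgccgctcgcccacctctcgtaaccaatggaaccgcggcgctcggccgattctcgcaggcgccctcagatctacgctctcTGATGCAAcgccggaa
GARS: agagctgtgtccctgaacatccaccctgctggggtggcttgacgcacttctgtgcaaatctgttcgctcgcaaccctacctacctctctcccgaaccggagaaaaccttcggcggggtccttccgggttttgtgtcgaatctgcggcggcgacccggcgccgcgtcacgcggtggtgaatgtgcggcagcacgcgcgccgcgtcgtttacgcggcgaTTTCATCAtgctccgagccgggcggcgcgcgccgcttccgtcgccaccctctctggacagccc
The first base of the match lay at -33 from the start site in GARS, -4 in MARS, -2 in CARS and 14 in NARS. CARS and MARS held the reverse complement TTGCATCA, GARS the variant TTTCATCA and NARS the forward form TGATGCAA. Among the other genes IARS (-13) and TARS (2) also held TTGCATCA, and YARS2 held TGATGGAA at -197. No match was found in the windows of WARS, SARS and EPRS, which says only that these letters are not in those windows. A match is a description of the sequence, and binding was not measured here.

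Genes known to respond to ATF4 were read in the same fit. Of 31 tested genes of the ATF4 amino acid response 25 were higher and 0 lower in the total knockdown against control. Over all genes 1.01% were higher and 1.19% lower. The median log2 fold change of the 31 was 0.50. This list was chosen with earlier results of these data known. ATF4 itself had a log2 fold change of 0.26 (adjusted p = 0.00395), PSAT1, an enzyme of serine synthesis, 0.69 (adjusted p = 4.23e-12), CHAC1, which degrades glutathione, 1.86 (adjusted p = 4.25e-07), and XPOT, the exporter of tRNA from the nucleus, 0.23 (adjusted p = 7.29e-05). ASNS, the asparagine synthetase, had 1.19 and did not pass (adjusted p = 0.189), nor did DDIT3 (1.41, adjusted p = 0.0753), GDF15 (-0.60), ALDH18A1 (-0.14), SLC38A2 (0.02) and CBS (0.15). ASNS (0.323 to 2.002 CPM in the treated libraries), DDIT3 (0.373 to 2.988) and GDF15 (0.196 to 1.865) had very few reads, against 244.9 to 508.5 CPM in PSAT1. Their results therefore say little, and reads on introns shared between genes were not counted. In the N-short and N-long knockdowns against control 0 of the 31 were called by edgeR's quasi-likelihood test, beside 0 and 3 of 13628 genes. By that test 2 and 4 of the 31 had an unadjusted p under 0.05, beside 537 and 594 of all genes. ATF4 had -0.04 in the N-short and 0.02 in the N-long knockdown.

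Lists of other genes around charged tRNA and translation were read in the same way, beside 1.01% of all genes higher and 1.19% lower. Of 17 partners of the synthetases 0 were higher and 1 lower, the lower one being TARSL2, a second cytosolic threonyl synthetase gene outside the 37 (log2 fold change -0.31, SE 0.0703, adjusted p = 0.00985), and the scaffold genes AIMP1 (0.11), AIMP2 (0.00) and EEF1E1 (0.08) did not pass. Of 16 cytosolic initiation and elongation factors 1 was higher, EIF2S2, the beta subunit of eIF2 (0.21, adjusted p = 0.00351). Of 11 mitochondrial translation factors 0 were called by edgeR's quasi-likelihood test. By that test 1 had an unadjusted p under 0.05, beside 1767 of all 13628 genes. The medians of these lists were -0.02, 0.05 and 0.06.

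The comparison of total with N-short knockdown, which sets 2 knockdowns against each other in every set but 24 hr replicate 2, called 12 synthetases higher and 0 lower, at a background of 1.53% of genes higher and 3.02% called in either direction. They were the 9 genes above, TARS (log2 fold change 0.14, SE 0.0322, adjusted p = 0.0115) and the complex members IARS (0.14, SE 0.031, adjusted p = 0.00569) and LARS (0.10, SE 0.03, adjusted p = 0.0468). AARS and WARS had the largest changes, 0.44 each (adjusted p = 4.3e-12 and 2.88e-09), then CARS (0.43, adjusted p = 8.34e-09), SARS (0.38, adjusted p = 3.1e-08), MARS and GARS (0.35 each), NARS (0.30), YARS (0.25) and EPRS (0.23). No mitochondrial gene passed, and DESeq2 called 0. By edgeR's quasi-likelihood test 1 of 15 (CARS2, -0.14, adjusted p = 0.236) had an unadjusted p under 0.05, beside 1945 of all genes. The other low values were -0.09 in VARS (adjusted p = 0.267) and -0.07 in RARS (adjusted p = 0.361). This comparison uses the same total knockdown libraries as the comparison with control, so it is not a separate observation of them. LARS lost its call when any of 10 single libraries was left out and under DESeq2 (adjusted p = 0.0606). Without the 48 hr total knockdown IARS (adjusted p = 0.218) and TARS (0.299) lost theirs too, as they did without the 48 hr N-short library (0.0916 and 0.0858), and TARS also without the N-short library of 24 hr replicate 1 (0.0725), all by edgeR's quasi-likelihood test with Benjamini-Hochberg adjustment.

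In the isoform knockdowns the synthetases lay near the controls. No synthetase passed edgeR's quasi-likelihood test in N-short against control, N-long against control or N-long against N-short knockdown, none had an unadjusted p under 0.05, and DESeq2 called none, at backgrounds of 0%, 0.0220% and 0.0147% of genes called (for N-long against control 0.00734% higher and 0.0147% lower, and between the isoform knockdowns 0.00734% higher and 0.00734% lower). Over all genes 537, 594 and 693 had an unadjusted p under 0.05 in these comparisons, and DESeq2 called 11, 7 and 17. AARS had a log2 fold change of -0.02 (SE 0.0318) in the N-short and 0.02 (SE 0.0316) in the N-long knockdown, and WARS 0.02 (SE 0.0431) and 0.08 (SE 0.0426). The N-short extremes were FARS2 (-0.09), SARS (-0.07) and NARS2 (-0.06) at the low end and EARS2 (0.06) and YARS2 (0.08) at the high end. In the N-long knockdown they were WARS2 (-0.25, SE 0.14), HARS2 (-0.07) and SARS (-0.03), against AARS2 (0.05) and WARS (0.08). Between the isoform knockdowns WARS2 (-0.20), EARS2 and YARS2 (-0.04 each) were lowest and NARS2 (0.07), CARS and FARS2 (0.08 each) highest.

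WARS2, the mitochondrial tryptophanyl enzyme, had 8.88, 8.12, 5.29 and 8.89 CPM in the N-long knockdown at 24 hr replicate 1, 24 hr replicate 2, 48 hr and 96 hr, and 7.81, 7.63 and 9.865 CPM in the controls. Its N-long and control libraries overlapped, and its few reads gave it one of the widest errors of the members. The controls are shared by the 3 comparisons with control, so their values are set side by side and not correlated.

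The rise in the total knockdown was next read along the genes. At the level of single introns, 53 of 353 cytosolic and 8 of 32 dual introns were higher against control, 0 of 210 mitochondrial introns were called, and 0 of them all were lower, at a background of 0.277% of 120379 annotated introns higher and 0.447% called in either direction. The median log2 fold change was 0.15 over cytosolic, 0.27 over dual and 0.02 over mitochondrial introns. AARS had 17 of 20 introns called higher, MARS 12 of 20, GARS 8 of 16, NARS 8 of 14, WARS 6 of 13, CARS 4 of 24, SARS 3 of 10, YARS 2 of 13 and EPRS 1 of 31. Every tested intron of AARS, GARS, MARS, NARS, SARS and YARS had a positive value, as did 23 of 24 in CARS, 30 of 31 in EPRS and 11 of 13 in WARS. These genes were called on the sum of their introns, so mostly positive values follow in part from the call. The share of positive values over all introns is not given here, and the median over all of them was 1.12e-04. Of the cytosolic genes not called, TARS had positive values in 18 of 18 introns, but VARS in 7 of 29 and RARS in 5 of 14. An intron of WARS (chr14:100342572-100343274) reached a log2 value of 0.68 (SE 0.0923, adjusted p = 3.21e-08). Introns of a gene share libraries and are not replicates of it, and the 61 called against control became 20 without the 48 hr total knockdown. With a control left out, they became 33 (48 hr) or 39 (96 hr). Of the 210 mitochondrial introns 12 had an unadjusted p under 0.05 by edgeR's quasi-likelihood test, 8 of them higher and 4 lower, and DESeq2 was not run on introns. Against the N-short knockdown 82 cytosolic, 14 dual and 0 mitochondrial introns were higher (background 0.415% higher, 0.607% either). These 96 became 41 without the 48 hr total knockdown. By edgeR's quasi-likelihood test 9 mitochondrial introns had an unadjusted p under 0.05 there. The counts at an unadjusted p have no share of all introns beside them here.

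**Figure D3:**
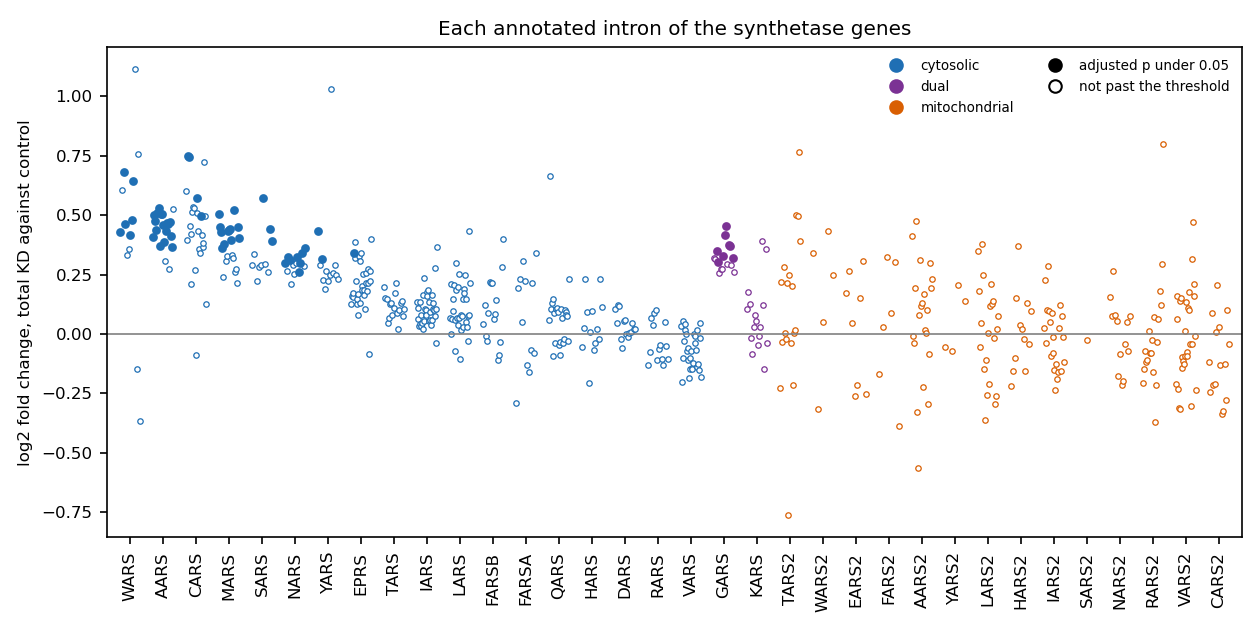
Log2 fold change of each tested annotated intron (1 point per intron) in total knockdown against control, by synthetase gene. All points of AARS, GARS, MARS, NARS, SARS and YARS lie above 0, while the introns of the mitochondrial genes spread to both sides of it.

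In the isoform knockdowns 0 of these introns were called by edgeR's quasi-likelihood test in N-short against control, N-long against control or N-long against N-short, beside 0.0116%, 0.0449% and 0.0307% of all introns. Of the 353 cytosolic introns 14, 13 and 21 had an unadjusted p under 0.05 by that test, of the 210 mitochondrial introns 8 in each, and of the 32 dual introns 0. The share of all introns at that unadjusted p is not given here.

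Splicing of the synthetase transcripts was read from cassette exons, internal exons that are either kept or skipped. Of 130 candidate exons in the 37 genes 32 had enough reads to test (20 mitochondrial, 9 cytosolic, 3 dual). None was called in any of the 5 knockdown comparisons by edgeR's quasi-likelihood test, where 1.30%, 0.0153%, 0.490%, 0.367% and 1.32% of 6535 exons were called (total, N-short and N-long against control, N-long against N-short and total against N-short). In the same order, 8, 1, 0, 0 and 1 of the 32 reached an unadjusted p under 0.05 by that test. Of the 6535 exons 506, 272, 360, 328 and 473 did. DESeq2 was not run on exons. The lowest adjusted p, 0.532, belonged to an exon of 264 nt of WARS outside its coding sequence (chr14:100375283-100375546). It was included in 63.6%, 71.8% and 56.7% of reads in the total knockdown at 24, 48 and 96 hr and in 38.9%, 42.9% and 48.1% in the controls, so the groups did not overlap, on a mean of 28.4 reads a library (unadjusted p = 0.0264 by the same edgeR quasi-likelihood test). This exon has 4 overlapping annotated forms that share reads. In NARS2 an exon of 27 nt (chr11:78441091-78441117) was included in 91.2%, 90.8% and 92.0% in the total knockdown and 91.7%, 78.7% and 88.1% in the controls, with overlap. The authors' deposited tables of splicing events against control list 252 to 344 events in synthetase genes per table. Of these 0 passed the authors' adjusted p under 0.05 and a change in inclusion of at least 0.1. Over all genes 1 to 54 of 45022 to 57221 events passed per table, 0.00218% to 0.118%. At so low a share, 0 passing says little about the synthetases.

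Between genes, levels were compared as CPM per intron without TMM scaling, the median over the introns of 1 coding transcript of each gene, since genes differ in how many introns they have. In the 14 treated libraries TARS had the highest level, 49.7 ± 5.58 (SD, n = 14, over all groups and library sets), ranging from 40.2 to 57.2. LARS (31.5 ± 2.26), IARS (31.0 ± 1.56), NARS (29.98 ± 3.36) and GARS (28.6 ± 3.33) followed, and neighbours among these 4 differed by less than their SDs. At the low end of the cytosolic genes were HARS (7.86 ± 1.09) and CARS (6.69 ± 1.09). IARS2, the mitochondrial isoleucyl enzyme, was the highest mitochondrial gene at 12.1 ± 0.866, close to FARSB (12.1 ± 1.98) and VARS (11.8 ± 0.983). YARS2 (8.29 ± 0.855) came next, while the other 14 of 16 mitochondrial genes had means under that of CARS. The lowest of these were AARS2 (2.10 ± 0.226), WARS2 (1.83 ± 0.385) and PARS2 (0.0948).

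**Figure D4:**
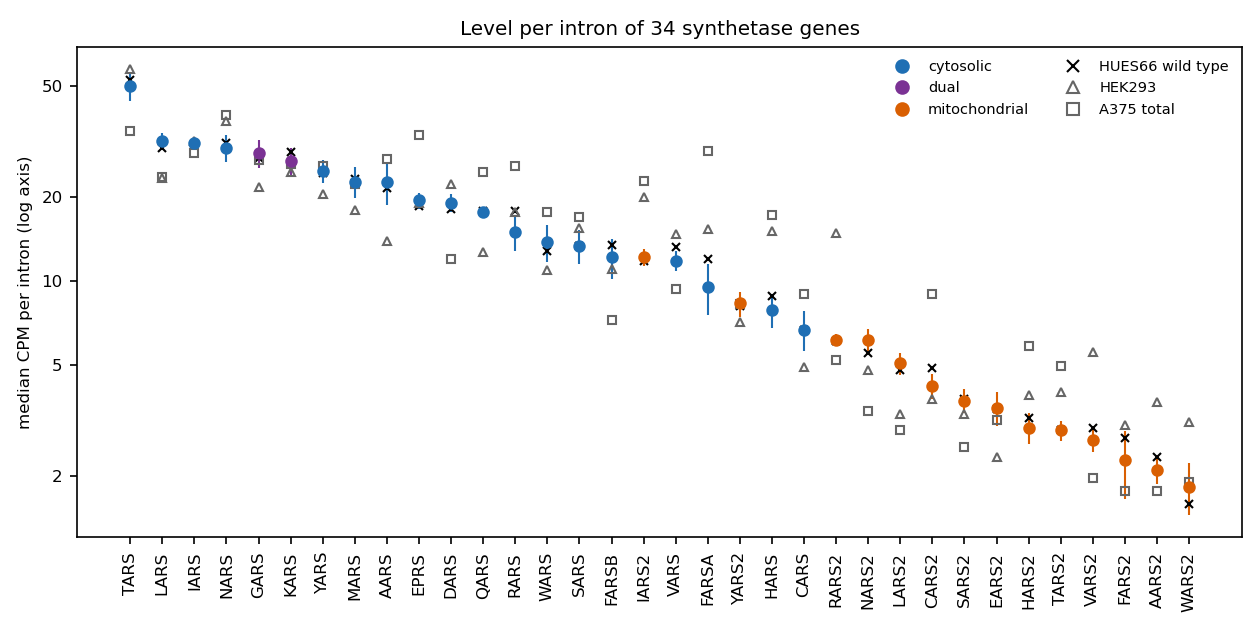
CPM per intron (log axis) of 34 synthetase genes as mean ± SD over the 14 treated libraries, with the single libraries of wild-type HUES66, HEK293 and A375 total RNA as separate markers. Cytosolic and dual genes fill the upper part of the range, with IARS2 and YARS2 the mitochondrial genes that reach into it.

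The median over cytosolic genes was 5.17 ± 0.592 times that over mitochondrial genes (SD, n = 14, range 4.32 to 6.15). The 14 libraries span all groups and library sets and are not replicates of 1 condition. The ratio was 4.32 to 4.47 in the libraries of 24 hr replicate 1 and 5.80 to 6.15 in those of 24 hr replicate 2. Set against its mitochondrial counterpart for the same amino acid, the cytosolic gene was higher in every treated library in all 16 pairs. TARS stood at 17.2 ± 2.30 times TARS2 and AARS at 10.9 ± 2.13 times AARS2, whereas CARS stood at 1.61 ± 0.36 times CARS2, RARS at 2.45 ± 0.448 times RARS2 and IARS at 2.57 ± 0.219 times IARS2 (SD, n = 14). In the other lines some pairs were near or under 1: CARS to CARS2 was 1.00 in A375 total RNA, 1.32 in its nuclear and 0.70 in its cytoplasmic RNA, where CARS2 was the higher, and RARS to RARS2 was 1.195 in HEK293, with 1 library for each value.

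Between the 48 hr and 96 hr sets most synthetases differed, in both directions, as did most genes. At 96 hr 16 of 35 were higher and 10 lower, beside 29.3% of all genes higher and 29.7% lower (59.0% in all), so the share of synthetases called, 26 of 35, stands beside a large background. Time and library series changed together between the sets, and culture may have changed too, so these cannot be told apart. FARS2, the mitochondrial phenylalanyl enzyme, had 9.07 to 9.87 CPM in the 4 libraries at 48 hr and 16.7 to 17.5 CPM in the 4 at 96 hr. These ranges did not overlap, and the log2 difference was 0.86 (SE 0.0922, adjusted p = 9.64e-10). FARSB was higher by 0.61 (SE 0.0373, adjusted p = 1.92e-15), RARS by 0.58 (adjusted p = 1.12e-16) and FARSA by 0.57 (adjusted p = 5.09e-13). Each of these times has a single library set, so the SEs and p-values measure spread between libraries within sets, not between sets. Sets of the same time also differed: FARSA had 144.8 to 153.3 CPM in 24 hr replicate 1 and 104 to 108.3 CPM in 24 hr replicate 2. Smaller rises were called in HARS (0.47), WARS2, KARS and TARS (0.38 each), GARS and YARS2 (0.25 each), VARS (0.23), NARS (0.22), HARS2 (0.20), AARS2 (0.15) and IARS2 (0.08).

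The lower genes at 96 hr were led by AARS (log2 difference -0.34, SE 0.0283, adjusted p = 3.34e-12), VARS2 (-0.23, SE 0.0487, adjusted p = 1.36e-04) and SARS (-0.23, SE 0.0362, adjusted p = 2.45e-06). CARS (-0.19), EARS2 (-0.17), NARS2 (-0.12), DARS, LARS and YARS (-0.11 each) and QARS (-0.10) were also called lower. Genes that rose together in the total knockdown were thus split between the sets: AARS, SARS, CARS and YARS were lower at 96 hr, GARS and NARS higher, and WARS, MARS and EPRS were not called. By class 7 cytosolic genes were higher and 7 lower, both dual genes were higher, and 7 mitochondrial genes were higher and 3 lower.

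The 3 lines were represented by 1 library each, so differences between them, given as CPM without TMM scaling unless stated, have no replicate check, and the 95% intervals (exact, from the reads of both libraries) cover counting error only. A gene was counted as apart at 2-fold. A375 cells had SOX10 at 107 CPM and MITF at 41.6 CPM, both melanocyte lineage factors, but PMEL at 0.507 CPM, and MLANA and TYR were not among the genes with reads. Wild-type HUES66 had FARSA, the catalytic subunit of the cytosolic phenylalanyl enzyme, at 144 CPM against 356 in A375 (ratio 0.405, interval 0.386 to 0.425). Of 35 synthetases 2 were lower, beside 22.6% of genes lower and 22.5% higher by 2-fold, and 0 synthetases were higher. FARSB, the other subunit of the same enzyme, went the other way at 1.91 (interval 1.78 to 2.06), followed by NARS2 (1.72), VARS2 (1.54) and FARS2 (1.49), all under 2-fold, although FARSB passed it after TMM scaling (log2 ratio 1.08). Per intron FARSA stood at 29.2 and FARSB at 7.23 CPM in A375, at 15.3 and 11.01 in HEK293 and at 11.9 and 13.4 in HUES66.

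Against HEK293, HUES66 had RARS2, the mitochondrial arginyl enzyme, at 120 against 272 CPM (ratio 0.442, interval 0.420 to 0.467), the 1 synthetase lower by 2-fold beside 20.2% of genes, with 0 higher beside 19.9%. After TMM scaling the log2 ratio of RARS2 was -0.93, short of 2-fold. VARS2 and WARS2 (0.557 each) were among the next lowest, and AARS (1.49), CARS (1.38), GARS and QARS (1.34 each) were highest. HEK293 against A375 had 3 mitochondrial genes higher by 2-fold, VARS2 (2.77, interval 2.48 to 3.10), RARS2 (2.67, interval 2.46 to 2.89) and AARS2 (2.38, interval 2.07 to 2.74), and 2 genes lower, CARS2 (0.467, interval 0.421 to 0.518) and AARS (0.496, interval 0.472 to 0.521). The background was 18.9% higher and 19.3% lower. The cytosolic median log2 ratio of HUES66 to HEK293 was -0.06 as CPM and 0.19 after TMM scaling, which moved the median of all genes from -0.10 to 0.14, so no direction is given for that class. Mitochondrial genes took 16.5% of synthetase reads in HEK293, 13.95% in A375 total RNA and 11.4% in wild-type HUES66.

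**Figure D5:**
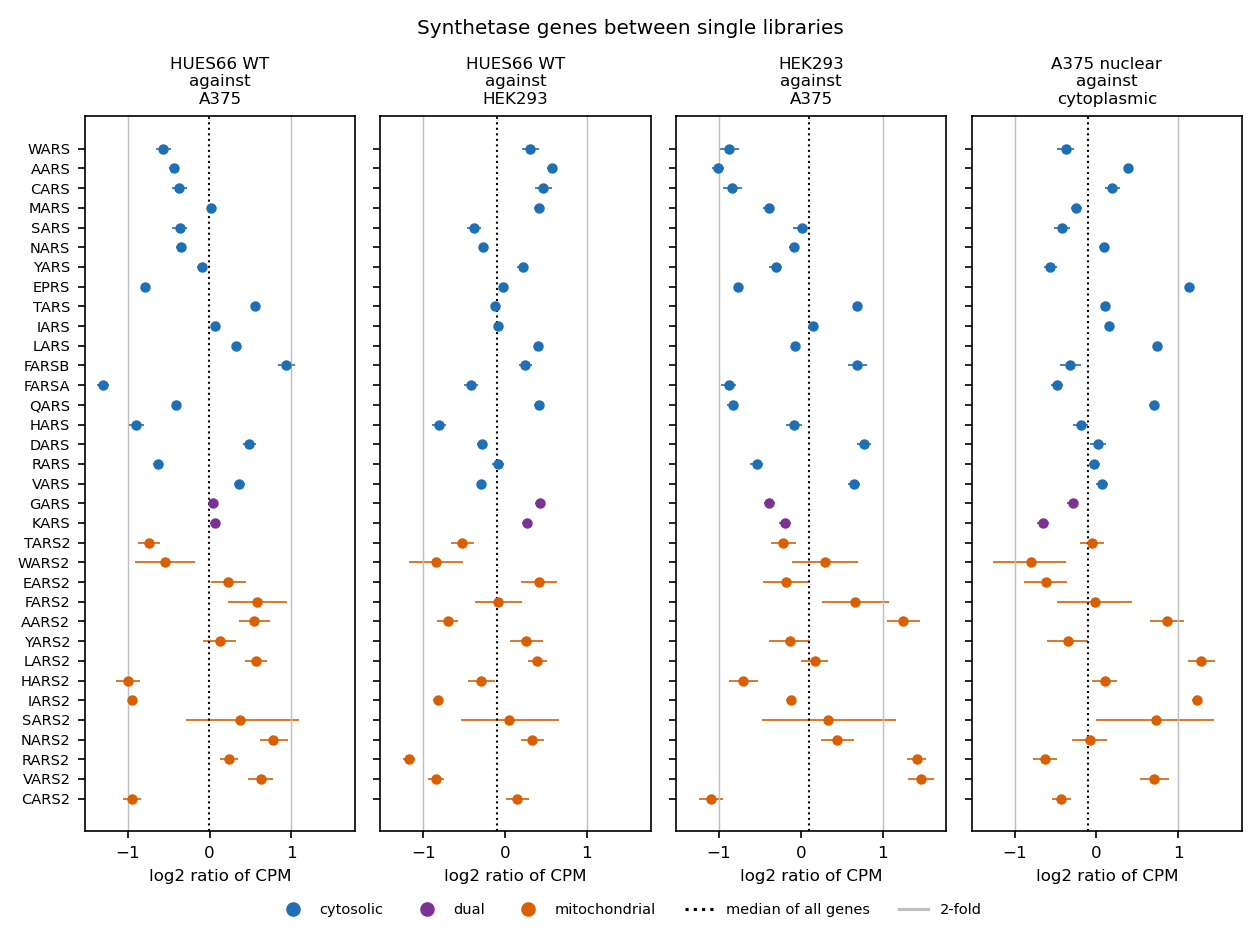
Log2 ratio of CPM with its exact 95% interval for each synthetase gene in 4 comparisons of single libraries, with the median of all genes dotted and 2-fold changes as grey lines. FARSA and FARSB lie on opposite sides of 0 in HUES66 against A375, and LARS2, IARS2 and EPRS lie beyond 2-fold on the nuclear side.

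Between the nuclear and cytoplasmic RNA of A375, most synthetase genes were within 2-fold in CPM. Each library is scaled to its own size, so a ratio near 1 does not mean an even split of transcripts between the compartments. The listed noncoding RNAs did not all mark the nuclear library: FTX had 38.7 CPM in the nuclear and 4.96 CPM in the cytoplasmic library and TUG1 25.4 and 17.1 CPM, whereas OIP5-AS1 had 2.80 and 12.7 CPM and MEG3 had 0 reads in both. All 4 listed cytoplasmic messages (RPLP0, EEF1A1, GAPDH and RPS2) were lower in the nuclear library, RPS2 at 753 against 3805 CPM. LARS2, the mitochondrial leucyl enzyme (ratio 2.44, interval 2.18 to 2.73), IARS2 (2.35, interval 2.25 to 2.45) and EPRS (2.19, interval 2.13 to 2.26, 1126 against 513 CPM) were 2-fold higher in the nuclear library, 3 of 35 beside 22.8% of genes. None was 2-fold lower, beside 19.1% of genes, and the lowest were WARS2 (0.574, interval 0.416 to 0.776), KARS (0.635), RARS2 (0.648) and EARS2 (0.650). The median log2 ratio was 0.04 in cytosolic and 0.00 in mitochondrial genes (0.00 and -0.05 after TMM scaling), against -0.11 over all genes (-0.15 after TMM scaling).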

How the data were processed

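RNA-seq of ribosomal-RNA-depleted libraries was deposited as lists of splice junctions. Per the submitters' processing notes, STAR 2.7.1, SAMtools 1.9 and the build hg38 were used. The deposited unit is the count of spliced reads per junction, with filters on reads not given in the sources used here, and the authors also deposited tables of splicing events with an inclusion difference and a p-value each. 69 other per-library columns of those tables were not used. Here reads on GENCODE 29 introns that belong to 1 gene were summed per gene, so genes without introns have no value, and coverage of exons does not enter. Annotated reads made up 96.7% to 98.3% of junction reads.

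A single model of the 14 treated libraries was fitted in edgeR 4.0.16 (R 4.3.3; TMM factors, filterByExpr, quasi-likelihood F-test) with terms for library set and knockdown, and p-values were adjusted by Benjamini-Hochberg over all genes, introns or exons tested (limit 0.05). The set term pairs the libraries by time point and, at 24 hr, by replicate: residuals of libraries of the same set correlated with a median r of 0.545 (18 pairs), against -0.170 over 55 pairs from different sets. Cassette exons needed a mean of 20 reads a library, a length of at most 1000 nt and a pooled inclusion of 2% to 98%. Single libraries were compared as CPM ratios (pseudocount 0.5, at least 20 reads, 2-fold) with exact 95% intervals. Level per intron is the median CPM over the introns of 1 coding transcript. In simulated data, 82.1% of genes changed by a log2 value of 1 were recovered in total knockdown against control (13409 genes), with 10 false calls. That change is larger than any synthetase change in this comparison (at most 0.46), so the recovery of changes of their size was not measured. The simulated libraries were drawn independently, without the broad differences between library sets seen here, so the false calls need not match those in these data. Alternatives were DESeq2 1.42.0, no filter, the time point in place of the library set, each library left out and the wild-type HUES66 library added as a control. Python 3.11.15 and scipy 1.17.1 were used.

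Members and gene lists were chosen with earlier results of these data known. Genes named with values are the members called in any comparison and the 3 highest and 3 lowest members of each, and results for 1 mitochondrial member, as well as 1 promoter sequence, are not reported here.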

Additional observations from a re-analysis of the deposited data

How the results depend on the processing

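The calls in the cytosolic and dual genes held under most alternatives. For total knockdown against control 9 were called with DESeq2, 9 without the filter, 7 with the time point alone in place of the library set and 10 with the wild-type HUES66 library added as a control, which added TARS (0.11, adjusted p = 0.0419), and 0 mitochondrial genes were called in any of these. With that time term and no replicate block, EPRS (adjusted p = 0.329) and YARS (adjusted p = 0.117) were no longer called, and against the N-short knockdown EPRS (0.169), IARS (0.263), LARS (0.733) and TARS (0.282) were not (edgeR's quasi-likelihood test with Benjamini-Hochberg adjustment). Dropping the pairing by set took the count of all genes called in total knockdown against control from 300 to 62, against the N-short knockdown from 411 to 68, for N-long to 0 against control and 0 against N-short, the synthetase introns called to 21 against control and 38 against N-short, and the mitochondrial genes called between 96 and 48 hr to 6.

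Leaving out single libraries moved the count of all genes called from 162 to 333 in total knockdown against control, 233 to 430 against N-short, 0 to 2 in N-short and 1 to 4 in N-long against control, and 1 to 4 between the isoform knockdowns. Mitochondrial genes called in the total knockdown ranged from 0 to 1. Synthetase introns called ranged from 20 to 63 against control and 41 to 98 against N-short, both lowest without the 48 hr total knockdown library. The count against control moved most without the 96 hr control (162 genes, 39 introns), the 48 hr total knockdown (181 genes, 20 introns) or the 48 hr control (190 genes, 33 introns), and that against N-short without the N-short library at 48 hr (233 genes) or 96 hr (268 genes) or the 48 hr total knockdown (266 genes). Values near 0, none of them called, changed sign (KD, knockdown). The range was -0.12 to 0.01058 for NARS2, N-short KD against control. It was -0.006967 to 0.09775 for AARS2, N-long KD against control, and -0.09152 to 0.002815 for VARS2, total KD against control.

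DESeq2 called 11, 7 and 17 genes, and the fit without a filter 4, 16 and 17, for the N-short and the N-long knockdown against control and for the difference between them. With the wild-type HUES66 library added 536 genes were called in total and 1 in N-short knockdown against control. After TMM scaling 2 cytosolic or dual genes (FARSA and FARSB) differed by 2-fold between HUES66 and A375, and 0 mitochondrial genes between HUES66 and HEK293, RARS2 no longer passing. The cause of these shifts was not tested. Depth limits the mitochondrial genes most, whose standard errors were the widest, and each knockdown has 1 library per set.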
